A study of Mus musculus with 12 samples.

Results

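The comparison described here is between primary mouse cardiac fibroblasts given TGF-beta1 with conditioned medium of adipocytes infected with a lentivirus for inhibition of the human microRNA hsa-miR-548ay (group TGF_KD_CM) and the same cells given TGF-beta1 with medium of adipocytes infected with the vector lentivirus (group TGF_VEC_CM). Both groups hold 3 libraries, 6 of the 12 in the series, and both carry TGF-beta1. The remaining 6 libraries came from fibroblasts without TGF-beta1, given medium of adipocytes with vector lentivirus (VEC_CM, 3 libraries) or with hsa-miR-548ay overexpression lentivirus (OE_CM, 3 libraries). All fibroblasts were grown in 10% serum, starved for 12 h and exposed to the media for 24 h. The adipocytes themselves were not measured, so the level of the microRNA was not checked here. The labels do not say where TGF-beta1 was added or whether replicates were separate cultures, so p-values measure the spread between libraries, which may be technical. Of 24619 genes in the deposited count table, 14400 passed a filter on low counts and were tested. Levels are CPM, counts scaled to a common library size with TMM factors, given per library or as mean ± SD (n = 3). Differences, also where a gene is said to rise or fall by a value, are log2 fold changes of TGF_KD_CM over TGF_VEC_CM from edgeR's quasi-likelihood test, called at a Benjamini-Hochberg adjusted p under 0.05, with their SE where given.

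Interferons are secreted proteins that bind receptors on the cell surface. The Janus kinases on those receptors phosphorylate STAT proteins, which join IRF9 and bind a DNA motif, the interferon-stimulated response element, upstream of antiviral genes. Fibroblasts make and answer type I interferon. ERK, the kinase at the end of the growth factor, RAS and MEK cascade, induces its own inhibitors, the Sprouty proteins and dual-specificity phosphatases, together with ETS factors such as ETV4 and ETV5. TGF-beta, acting through SMAD proteins, is known for inducing matrix and integrin genes in cardiac fibroblasts.

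The libraries held 34539071 to 35679355 counts in TGF_VEC_CM and 36317652 to 36806692 in TGF_KD_CM. No pair of libraries within a group was a duplicate, with a chi-square per gene of 2.93 to 4.29. Of the fibroblast markers, Col1a1 (1786 and 1774 CPM as means of TGF_VEC_CM and TGF_KD_CM), Col1a2, Pdgfra, Ddr2 and Vim were abundant. Dcn (0.146 and 0.135 CPM), Lum (0 and 0.00904 CPM) and the myofibroblast gene Acta2 (0.376 and 0.315 CPM) were near the level of 3 counts, which is at most 0.0843 CPM in these 6 libraries. The label of cardiac fibroblasts thus has some of its defining markers near 0. Fibroblast markers summed to 10466 to 10567 CPM in TGF_VEC_CM and 11533 to 11917 CPM in TGF_KD_CM, and 5 of 8 tested rose (62.5%) and none fell. Leukocyte markers summed to 38.4 to 42.4 CPM in TGF_VEC_CM and 35.0 to 36.8 CPM in TGF_KD_CM, and 1 of 13 tested rose (7.69%) and 2 fell (15.4%). Over all genes tested 23.0% were higher and 20.2% lower, so both leukocyte shares were under the background. Cardiomyocyte markers summed to 105 to 116 CPM against 97.3 to 104 CPM, adipocyte markers to 252 to 271 CPM against 224 to 231 CPM, and smooth muscle and pericyte markers to 967 to 983 CPM against 751 to 766 CPM. Their part in the results was not tested. In bulk libraries such as these, fewer cells of a type and less RNA per cell cannot be told apart.

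TGF_KD_CM differed from TGF_VEC_CM in many genes by a little and in the interferon response by much more. In TGF_KD_CM, 3318 of 14400 genes were higher (23.0%) and 2911 were lower (20.2%), with a median absolute log2 difference of 0.26 among them. Past a 2-fold difference, 216 genes were higher (1.50%) and 364 were lower (2.53%). The median over all genes tested was -0.00026. Interferon list genes took 0.717% to 0.728% of all counts in the TGF_VEC_CM libraries and 1.45% to 1.49% in the TGF_KD_CM libraries. Of 209 interferon list symbols, 197 were in the table, 18 of those were too low to test, and 179 were tested. Of the 179, 140 rose, 6 fell and 33 did not pass; 91 were at least 2-fold higher, and the median log2 difference was 1.05. Against the background of 23.0% of all genes higher, 78.2% of the tested interferon genes were. The lists were chosen with earlier results of these data known, so this share describes the lists and was not tested. The 18 that the filter removed include Ifnb1, Tlr7, Cmpk2 and Ifi44l.

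The response element has the core letters GAAANNGAAA, in which N is any base. These letters were searched on both strands of the 300 bases from 250 before to 50 after each gene start, with the RefSeq promoters of GRCm38.p6. Of all tested genes with a promoter in the table, 3.81% (425 of 11157) held the core, as did 3.44% of all 32851 promoters of that length. Among interferon genes that rose the share was 45.0% (50 of 111), among those at least 2-fold higher 56.5% (39 of 69), and among those at least 8-fold higher 76.2% (16 of 21). Interferon genes that did not pass held it in 5 of 26 cases (19.2%), and genes at least 2-fold lower in 1 of 257 (0.389%). By class, the core was in 9 of 10 GBP and IRG genes, 9 of 12 restriction factors, 4 of 5 IFIT genes and 4 of 6 OAS genes. It was in 1 of 5 genes of ISG15 conjugation, 1 of 8 PARP and PML nuclear body genes and 1 of 5 immunoproteasome genes. None of 8 cell death genes and none of 7 receptor and kinase genes held it. In all of these classes most or all tested genes rose. None of 4 MHC class II genes held the core, and no tested gene of that class rose. The lists were drawn up from knowledge of the interferon response and with earlier results of these data known. These shares therefore describe the lists and were not tested. The windows below, from genes that rose, are shown because they carry the core; a match is a description and not a measured binding site. They read 5′ to 3′ on the strand of the gene, with capitals for the matched core or overlapping cores and lower case for 15 bases on either side.
Isg15: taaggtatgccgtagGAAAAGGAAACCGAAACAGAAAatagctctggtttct
Ifit1: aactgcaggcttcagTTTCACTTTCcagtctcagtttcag
Ifit1: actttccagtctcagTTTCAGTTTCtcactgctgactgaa
Ifit3: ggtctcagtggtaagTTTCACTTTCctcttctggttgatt
Ifit3b: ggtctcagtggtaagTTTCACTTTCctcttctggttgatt
Gbp3: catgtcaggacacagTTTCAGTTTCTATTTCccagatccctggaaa
Bst2: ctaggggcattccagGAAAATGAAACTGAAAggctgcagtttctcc
Stat2: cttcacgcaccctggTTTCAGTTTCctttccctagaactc
In GRCm38.p6 the Isg15 window is chr4:156200860-156200911 on the minus strand and holds 3 overlapping cores, the first starting 78 bases before the gene start. The Ifit1 windows are chr19:34640770-34640809 and chr19:34640789-34640828 on the plus strand, 104 and 85 bases before the start. Those of Ifit3 (chr19:34583358-34583397) and Ifit3b (chr19:34607754-34607793), both on the plus strand, have the same letters, and reads of such close copies could be split between the genes. Each of these genes holds a further core, not shown, at 122 (Ifit3) and 154 (Ifit3b) bases before the start. The Gbp3 window is chr3:142559984-142560029 and the Stat2 window is chr10:128270261-128270300, both plus. The other searched promoter of Gbp3 holds no core. The Bst2 window is chr8:71537572-71537617, minus. The searched windows of Ifi44, Oasl2, Xaf1, Irf7 and Irf9, which also rose, do not hold these letters.

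Interferon ligands were not measurable, while the receptors and kinases rose by small amounts. Ifnb1, which encodes interferon beta, was at 0.00905 and 0.00894 CPM in the TGF_VEC_CM and TGF_KD_CM means, 1 count over each group, and Ifne, Ifng and Ifnz were at or under 0.0456 CPM. A difference in the ligands was not detectable at this depth, and the interferon alpha and lambda genes were not analysed here. Of 8 tested receptor and Janus kinase genes, 6 rose and none fell, with a median of 0.24. Both type I receptor chains rose, Ifnar1 from 62.4 ± 0.857 to 72.97 ± 0.486 CPM and Ifnar2 from 59.4 ± 1.51 to 78.3 ± 0.169 CPM, with log2 differences of 0.23 ± 0.039 SE and 0.40 ± 0.04 SE. Of the type II receptor chains Ifngr2 rose by 0.37, and Ifngr1 was at 0.13 with an edgeR adjusted p of 0.0785. Il10rb, a chain shared by the type III interferon and IL10 receptors, rose by 0.63. Jak1 rose by 0.26 and Jak2 by 0.18; Tyk2 was at 0.083 and did not pass.

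Stat2 and Irf9, parts of the factor that binds the element, both rose. Stat2 was at 30.99, 35.5 and 34.4 CPM in the TGF_VEC_CM libraries and 102, 109.9 and 102 CPM in the TGF_KD_CM libraries, a log2 difference of 1.64 ± 0.053 SE with an edgeR adjusted p of 1.20e-28. Irf9, the DNA-binding part, was at 18.01, 19.2 and 20.1 CPM in the TGF_VEC_CM libraries and 78.5, 76.1 and 77.3 CPM in the TGF_KD_CM libraries, a difference of 2.02 ± 0.058 SE. All 3 TGF_KD_CM libraries were above all 3 TGF_VEC_CM libraries for both genes. Of 11 tested STAT and IRF genes 8 rose and none fell, with a median of 0.79. Irf7, the factor that amplifies the transcription of interferon alpha genes, had the largest rise, from 4.84 ± 0.318 to 105 ± 5.49 CPM (4.44 ± 0.15 SE, edgeR adjusted p = 1.90e-09). Irf1, induced by type II interferon, rose by 0.79, Irf2 by 0.38, Stat3 by 0.22 and Batf2 by 1.62. Irf3, the factor that sensors activate without new synthesis, was at -0.063, and Irf5 and Irf8 at -0.15 and -0.38; none of the 3 passed.

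Sensors of viral RNA rose, while the central adaptors for RNA and DNA did not pass. Of 16 tested sensor and adaptor genes 11 rose and none fell, with a median of 0.65. The RNA helicases Rigi, Ifih1 (MDA5) and Dhx58 (LGP2) rose by 2.38, 2.71 and 2.596, from 23.8 to 124 CPM, 4.32 to 28.4 CPM and 11.5 to 69.4 CPM. Eif2ak2, the kinase PKR that halts translation on double-stranded RNA, rose from 135 ± 5.03 to 333 ± 12.7 CPM. Zbp1, a sensor of Z-form nucleic acid that can start necroptosis, was at 8.34, 10.6 and 10.2 CPM in the TGF_VEC_CM libraries and 199.99, 217 and 226 CPM in the TGF_KD_CM libraries. The groups lay far apart, with a difference of 4.47 ± 0.11 SE. Mavs, the adaptor of the RNA helicases, was at 0.019; Cgas and Sting1, the DNA sensor and its adaptor, were at 0.021 and 0.019, and none of the 3 passed. Tlr3, the endosomal receptor of double-stranded RNA, rose by 1.47, and the kinase Tbk1 by 0.27.

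Effectors that act on viral RNA rose. All 8 tested genes of the OAS list passed, with a median of 2.80, and 6 to 8 did with 1 library left out; Oas1c (0.52) did not pass in 4 of the 6 leave-outs. Oas2 (chromosome 5, 120730333 to 120749886), which makes the oligoadenylate messenger when it meets double-stranded RNA, was at 1.24, 2.06 and 1.52 CPM in the TGF_VEC_CM libraries and 84.2, 84.5 and 90.2 CPM in the TGF_KD_CM libraries. Every TGF_KD_CM library was above every TGF_VEC_CM library, with a difference of 5.74 ± 0.16 SE and an edgeR adjusted p of 2.38e-12. Oasl2, an OAS-like protein, rose by 5.33, Oas3 by 3.46, Oas1a by 2.82 and Oasl1 by 2.17. All 5 tested IFIT genes, whose products bind foreign 5′ ends of RNA, rose, with a median of 4.92. Ifit1 (chromosome 19, 34640889 to 34650009) was at 0.365, 0.704 and 0.5701 CPM in the TGF_VEC_CM libraries and 26.6, 29.8 and 27.2 CPM in the TGF_KD_CM libraries, a difference of 5.66 ± 0.19 SE between groups that did not overlap. Ifit3 rose by 4.92 from 0.589 to 17.8 CPM. Ifit3b rose by 6.05, from 9 counts over the TGF_VEC_CM libraries to 629 over the TGF_KD_CM libraries. Ifit2, of the same family, rose by 0.31, from 23.7 to 29.3 CPM.

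Isg15, a ubiquitin-like protein joined to other proteins, rose with the enzymes that attach and remove it. All 6 genes of this pathway rose, with a median of 1.89. Isg15 (chromosome 4, 156199424 to 156200818) was at 1.04, 1.06 and 1.14 CPM in the TGF_VEC_CM libraries and 49.1, 56.4 and 54.3 CPM in the TGF_KD_CM libraries. The 3 TGF_VEC_CM values lay close together and the TGF_KD_CM values far above them, a difference of 5.62 ± 0.20 SE with an edgeR adjusted p of 4.30e-11. The activating enzyme Uba7 rose by 2.44, the conjugating enzyme Ube2l6 by 1.34, the ligase Herc6 by 1.104 and Trim25 by 0.81. Usp18, which removes ISG15 and blocks the receptor chain IFNAR2, rose by 4.89 ± 0.085 SE, from 2.73 ± 0.208 to 81.4 ± 1.99 CPM. It is also the brake with the largest rise. Of 10 tested brakes on interferon signalling 4 rose (40%), 2 fell (20%) and 4 did not pass, with a median of -0.039. Over all genes tested 23.0% were higher and 20.2% lower, so the share of brakes that fell was near the background. Adar, which edits double-stranded RNA, rose by 1.01 and Samhd1, a dNTP hydrolase, by 0.30. The STAT inhibitors Socs1 (-0.19) and Socs3 (-0.065) did not pass, and Ptpn1, a phosphatase of the kinases, fell by 0.32.

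Among restriction factors 13 of 14 tested rose and none fell, with a median of 2.13. Bst2 (tetherin, which holds budding virus at the membrane) rose from 44.1 ± 1.66 to 284 ± 7.71 CPM (2.69 ± 0.04 SE). Bst2 also marks plasmacytoid dendritic cells. The list of plasmacytoid and dendritic cell markers summed to 93.01 to 98.3 CPM in TGF_VEC_CM and 340.4 to 352 CPM in TGF_KD_CM, and 2 of its 3 tested members rose, Bst2 and the transcription factor Tcf4 (from 50.5 ± 2.13 to 63.4 ± 1.12 CPM), which is not restricted to those cells. Siglech (0.0181 and 0 CPM), a defining marker of plasmacytoid cells, and Flt3 (0 and 0.0271 CPM), a receptor of dendritic cells and their precursors, were at or near 0 in the means of TGF_VEC_CM and TGF_KD_CM. Ifitm3, which blocks viral entry, rose from 193 ± 1.85 to 682 ± 32.9 CPM (1.82), Rtp4 by 3.57, and Rsad2 (viperin) by 2.44 from 0.779 to 4.23 CPM. All 11 PARP and PML nuclear body genes rose, with a median of 1.91 (10 or 11 with 1 library left out). Parp14, an ADP-ribosyltransferase, rose by 3.02, the nuclear body protein Sp100 by 2.79, and the pair Parp9 and Dtx3l, whose products form a complex, by 2.65 and 1.91. Mx1 and Mx2 were not analysed here.

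GBP and IRG GTPases, which attack the vacuoles of intracellular microbes, rose in 14 of 16 tested cases, all 14 by at least 2-fold, with a median of 3.46. Gbp3 was at 0.337, 0.785 and 0.217 CPM in the TGF_VEC_CM libraries and 14.8, 15.6 and 13.04 CPM in the TGF_KD_CM libraries. Its groups did not overlap and the difference was 5.004 ± 0.28 SE. Irgm1, Irgm2 and Igtp, which regulate the other IRG proteins, rose by 2.35, 3.84 and 3.69, and the effector Iigp1 by 3.45. Gbp4 (0.255 and 0.432 CPM) and Gbp5 (0.619 and 1.08 CPM) were at 0.75 and 0.80 and did not pass. The GBP and IRG genes have near copies in the mouse genome, so single values depend on how the authors' counting assigned shared reads.

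**Figure D1:**
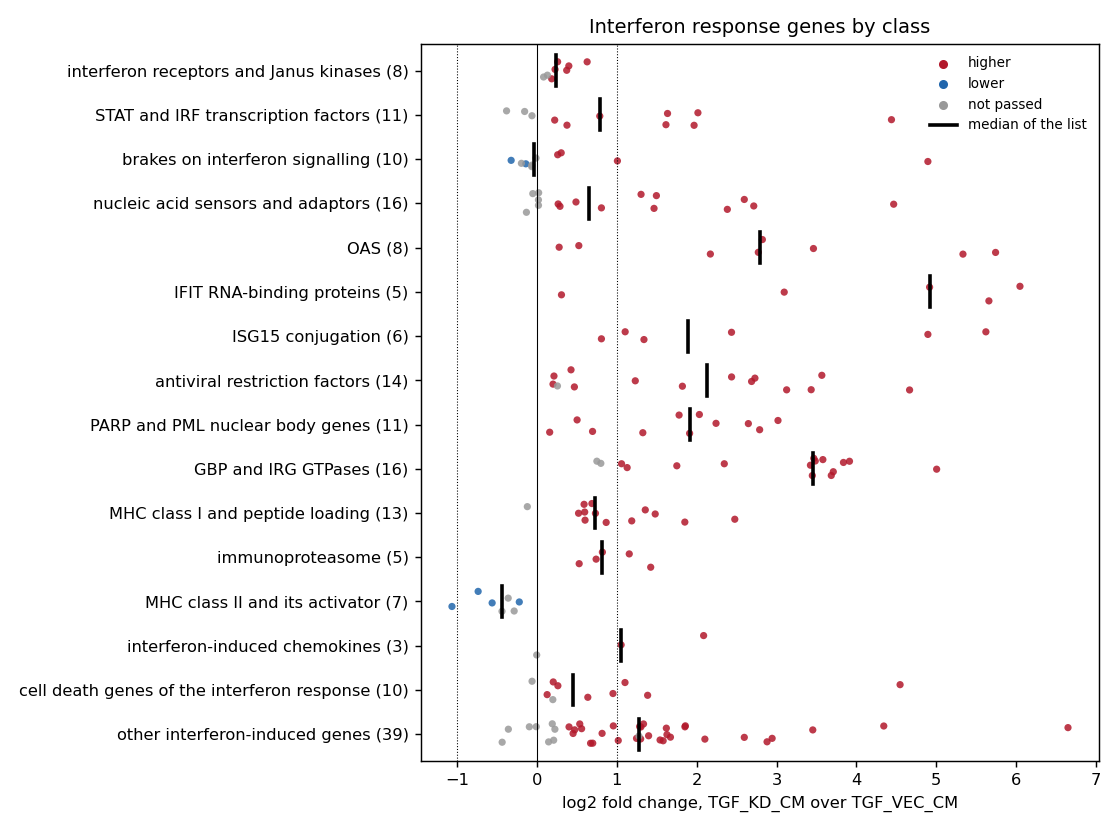
Log2 fold changes of TGF_KD_CM over TGF_VEC_CM (x axis) for the tested genes of 16 interferon lists (rows, number tested in brackets), coloured by call, with the list median as a bar and dotted lines at 2-fold. The IFIT (median 4.92), GBP and IRG (3.46) and OAS (2.80) lists lie to the right, and the MHC class II list (median -0.44) lies left of 0.

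**Figure D2:**
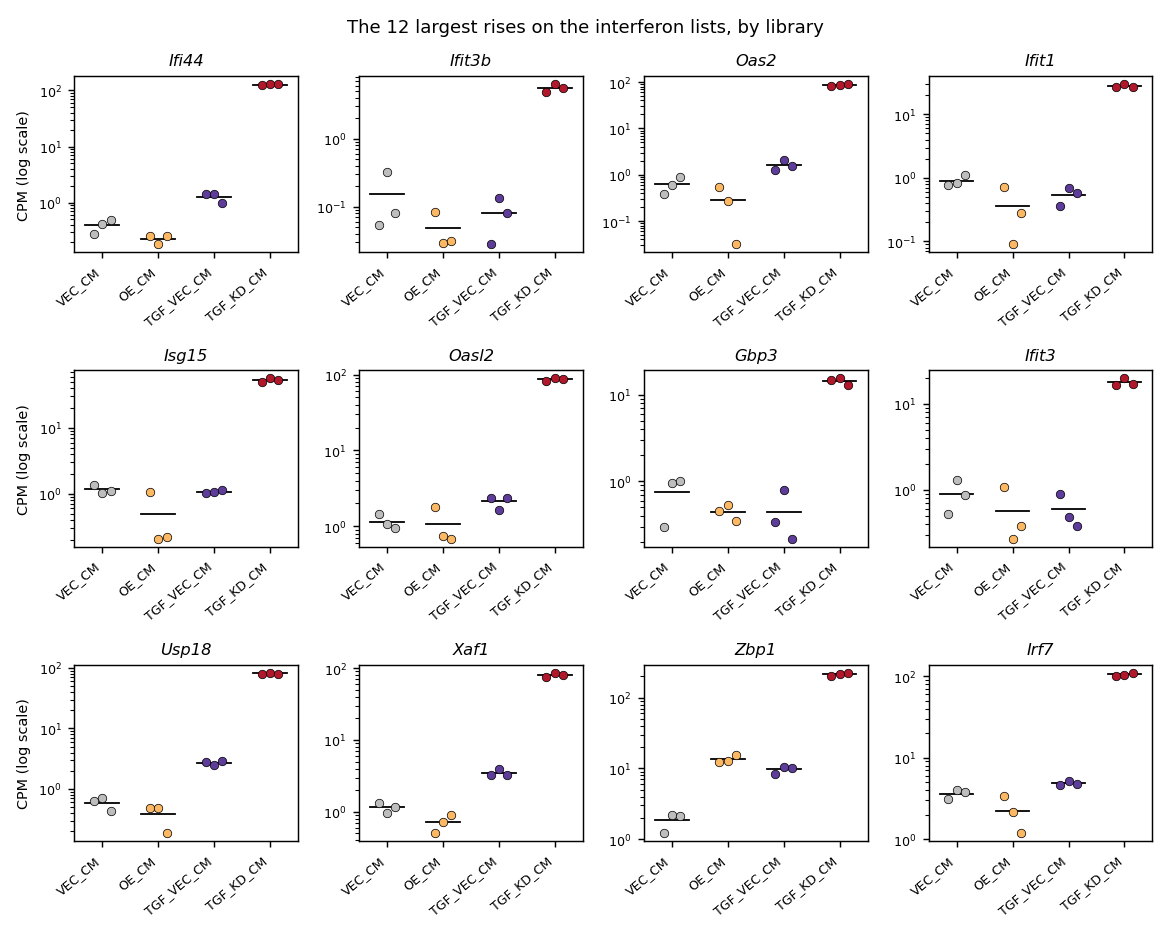
CPM on a log axis for the 12 interferon list genes with the largest rises, in each library of the 4 groups, with the group mean as a line. In every panel the 3 TGF_KD_CM points lie above the other 9, and in the OE_CM group Zbp1 has a mean of 13.4 CPM against 1.84 CPM in VEC_CM.

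Antigen presentation divided by class, with most MHC class I genes higher and 4 class II genes lower. Of 13 tested class I and peptide loading genes 12 rose and none fell, with a median of 0.73. The class I heavy chain H2-K1 rose from 261 ± 5.49 to 420.2 ± 14.2 CPM, and B2m, the shared light chain, from 651 ± 6.83 to 986 ± 32.1 CPM, differences of 0.69 ± 0.027 SE and 0.60 ± 0.024 SE. The peptide transporter chains Tap1 and Tap2 rose by 0.87 and 0.59, the loading factor Tapbp by 1.36, the trimming peptidase Erap1 by 1.85, and Nlrc5, the class I transactivator, by 0.60. All 5 immunoproteasome genes rose, with a median of 0.82, led by Psmb8 (1.42) and Psme2 (1.16). Of 7 class II genes, none rose, 4 fell and 3 did not pass, with a median of -0.44; H2-Ab1, 1 of the 4, was at -0.74 and did not pass without the second TGF_VEC_CM library or the second TGF_KD_CM library, where it was at -0.64 in both cases (edgeR adjusted p = 0.1001 and 0.0953). Ciita, the class II transactivator, was at 1.52, 1.41 and 1.49 CPM in the TGF_VEC_CM libraries and 0.651, 0.624 and 0.832 CPM in the TGF_KD_CM libraries. The TGF_VEC_CM libraries were all higher, and Ciita fell by 1.06 ± 0.33 SE, with an edgeR adjusted p of 0.00598. Cd74, the invariant chain, fell by 0.22 and H2-DMa, which loads peptide on class II, by 0.56. Class II genes are also leukocyte genes, and Ptprc (CD45), a defining leukocyte marker, was at 0.421, 0.947 and 0.814 CPM against 0.244, 0.3799 and 0.161 CPM in the same groups; the part of leukocyte RNA in the class II difference was not tested.

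Of the interferon-induced chemokines, Cxcl10, which attracts T cells, rose from 1.34 ± 0.161 to 5.72 ± 0.791 CPM (2.09 ± 0.28 SE). Cxcl9 rose by 1.05, but not without the third TGF_KD_CM library, where the difference was 0.80 (edgeR adjusted p = 0.0693). Ccl5 was at -0.0031 with 8.16 and 8.14 CPM and did not pass. Cell death genes rose in 8 of 10 tested cases, with a median of 0.45: Xaf1, an antagonist of the apoptosis inhibitor XIAP, by 4.55 ± 0.084 SE from 3.46 ± 0.447 to 81.04 ± 5.56 CPM, the inflammatory caspases Casp1 and Casp4 by 1.103 and 1.39, and the necroptosis pair Ripk3 and Mlkl by 0.13 and 0.20. Of 39 tested genes of the remaining interferon list, 30 rose and none fell, with a median of 1.28. Ifi44 (chromosome 3, 151730922 to 151749910), a cytoplasmic protein induced by interferon, was at 1.43, 1.41 and 0.977 CPM in the TGF_VEC_CM libraries and 126, 128 and 129.8 CPM in the TGF_KD_CM libraries. It had the largest rise of the lists (6.65 ± 0.084 SE, edgeR adjusted p = 2.31e-60). Lgals3bp, a secreted glycoprotein, rose from 186 ± 2.93 to 593 ± 9.98 CPM, and the apolipoproteins Apol9a and Apol9b by 2.88 and 3.45, though their near-identical sequences can share reads.

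Outside the interferon lists, 14221 genes were tested, of which 3178 rose and 2905 fell. At least 2-fold higher were 125, and 363 at least 2-fold lower, many at low levels: of the latter 183 had a mean under 1 CPM in the higher group and 134 had 1 to 5 CPM, leaving 34 at 5 to 20 CPM and 12 at 20 CPM or more. Of the 2-fold rises on no list, 93 genes had a promoter in the table. The response element core was in any promoter of 16 of them (17.2%), beside 3.81% of all tested genes with a promoter. The 10 largest rises at 5 CPM or more were H2-T24 (6.37), Gm7592, Iigp1c, Trim34b, Gvin2, Gm7609, Ifi207, Gm20559, Trim12c and Trim30d (2.05). Of these, H2-T24 is a class I-like gene, Iigp1c an IRG gene and Ifi207 a member of the Ifi200 family. Trim34b, Trim12c and Trim30d belong to the Trim cluster on chromosome 7. These 6 have close relatives on the interferon lists, and their reads may be shared. Gm7592 and Gm7609 lie near the listed Sp100 on chromosome 1, and Gm20559 near the listed Samd9l on chromosome 6. Being on no list does not place a gene outside the interferon response, and this was not tested. H2-T24 was at 0.169, 0.244 and 0.136 CPM in the TGF_VEC_CM libraries and 16.2, 14.4 and 15.6 CPM in the TGF_KD_CM libraries. The groups did not overlap. The 10 largest falls at 5 CPM or more were Lamb3, Sgk2, Cyth4, Plat, Etv5, Gm41125, Spry4, Rap1gap2, Vwa1 and Ankrd34a, from -2.305 to -1.57.

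Most tested targets and inhibitors of ERK were lower. Of 15 tested ERK feedback genes 12 fell, none rose and 3 did not pass, with a median of -0.66, beside 20.2% of all genes lower. Etv5 (chromosome 16, 22381313 to 22439570), an ETS transcription factor, was at 31.3, 32.7 and 34.4 CPM in the TGF_VEC_CM libraries and 9.81, 8.85 and 9.04 CPM in the TGF_KD_CM libraries. Each TGF_KD_CM library was lower than each TGF_VEC_CM library, and Etv5 fell by 1.83 ± 0.066 SE with an edgeR adjusted p of 2.70e-34. Its relative Etv4 was at 46.4, 42.7 and 41.7 CPM in the TGF_VEC_CM libraries and 19.6, 19.7 and 19.6 CPM in the TGF_KD_CM libraries and fell by 1.15 ± 0.055 SE. The MAP kinase phosphatases followed: Dusp6, which acts on ERK in the cytoplasm, was at 14.3, 15.9 and 15.01 CPM in the TGF_VEC_CM libraries and 6.24, 5.81 and 5.18 CPM in the TGF_KD_CM libraries and fell by 1.39 ± 0.092 SE, nuclear Dusp5 fell by 1.02 and Dusp4 by 0.66. Of the Sprouty and Spred inhibitors Spry4 fell by 1.72 from 7.61 ± 0.928 to 2.31 ± 0.0982 CPM, Spry2 by 0.31, and Spred1, Spred2 and Spred3 by 0.17, 0.22 and 0.63. Etv1 (0.11), Dusp7 (-0.046) and Il17rd (-0.14) did not pass.

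Of 21 tested immediate early genes, 12 fell (57.1%) and 2 rose (9.52%), with a median of -0.29, beside 20.2% of all genes lower and 23.0% higher. With 1 library left out, 10 to 12 of them fell. Fos, Fosb and Egr1 fell by 1.35, 1.18 and 1.17, from 1.198 to 0.468 CPM, 2.07 to 0.911 CPM and 1.34 to 0.594 CPM. Myc and Srf, a pair of factors induced by serum, fell by less, Myc from 121 ± 6.06 to 96.9 ± 1.68 CPM and Srf from 76.7 ± 2.86 to 62.9 ± 2.76 CPM, while Fosl2 rose by 0.36 and Klf6 by 0.27. Among 15 tested growth factors and receptors upstream of ERK, 8 fell (53.3%) and 4 rose (26.7%), the latter near the share over all genes. With 1 library left out, 6 to 8 of them fell. The tested EGF receptor ligands fell: Hbegf was at 20.99, 16.5 and 17.05 CPM in the TGF_VEC_CM libraries and 9.49, 7.79 and 7.84 CPM in the TGF_KD_CM libraries, groups that did not overlap (-1.12 ± 0.094 SE), Ereg fell by 0.71 and Areg by 1.61. Fgf2, a ligand that acts on fibroblasts, fell from 22.5 ± 0.177 to 13.2 ± 0.842 CPM, and the PDGF receptor ligand Pdgfa fell by 0.33. The PDGF receptors rose, Pdgfrb from 57.2 ± 1.57 to 109.9 ± 2.98 CPM (0.94 ± 0.036 SE) and Pdgfra from 168 ± 4.004 to 216 ± 4.95 CPM (0.36 ± 0.03 SE). Egfr itself was too low to test, at 0.118 and 0.0987 CPM.

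Adhesion receptors and their basement membrane ligands fell in more cases than they rose. Of 14 tested integrin chains 8 fell and 1 rose, with a median of -0.35, and of 7 tested laminin chains 4 fell and 1 rose, with a median of -0.39, beside 20.2% of all genes lower and 23.0% higher. Lamc3, 1 of the 4 laminins at 0.394 and 0.117 CPM, was at -1.72 and did not pass with DESeq2, without the filter on low counts, or without the first library or the third of either group. Lamb3 (chromosome 1, 193294353 to 193343878), a laminin beta chain of epithelial basement membranes, was at 35.7, 33.1 and 42.6 CPM in the TGF_VEC_CM libraries and 7.81, 6.89 and 7.84 CPM in the TGF_KD_CM libraries. The TGF_KD_CM libraries were all lower, and Lamb3 fell by 2.305 ± 0.13 SE with an edgeR adjusted p of 7.52e-11. The chains Lama5 and Lamb1 fell by 0.39 and 0.43, Lamc1 was at -0.049 and did not pass, and Lamb2 rose by 0.17. Of the integrin alpha chains that bind laminin, 3 fell: Itga3 was at 64.3, 64.5 and 64.7 CPM in the TGF_VEC_CM libraries and 36.95, 36.8 and 33.4 CPM in the TGF_KD_CM libraries and fell by 0.85 ± 0.052 SE, Itga6 fell by 0.52 and Itga7 by 0.88. The chains of RGD-binding integrins Itgav, Itga5 and Itgb6 fell by 0.34, 0.24 and 1.06, and Itgb3 by 2.36 from 0.985 to 0.189 CPM. The common chain Itgb1 fell by 0.12, and Itgb7, a leukocyte integrin chain, rose by 0.36. Among 9 tested cadherin and immunoglobulin molecules 5 fell, led by Jam2 (-1.06) and Nectin1 (-0.56), and L1cam rose by 0.29. Of 16 focal adhesion genes, 7 fell and 5 rose, none by 2-fold, with a median of -0.025; Pxn (paxillin) fell by 0.28 and Parva rose by 0.41. Epithelial and mesothelial markers summed to 91.0 to 94.6 CPM in TGF_VEC_CM and 75.1 to 78.8 CPM in TGF_KD_CM, and the part of such cells in the adhesion differences was not tested.

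**Figure D3:**
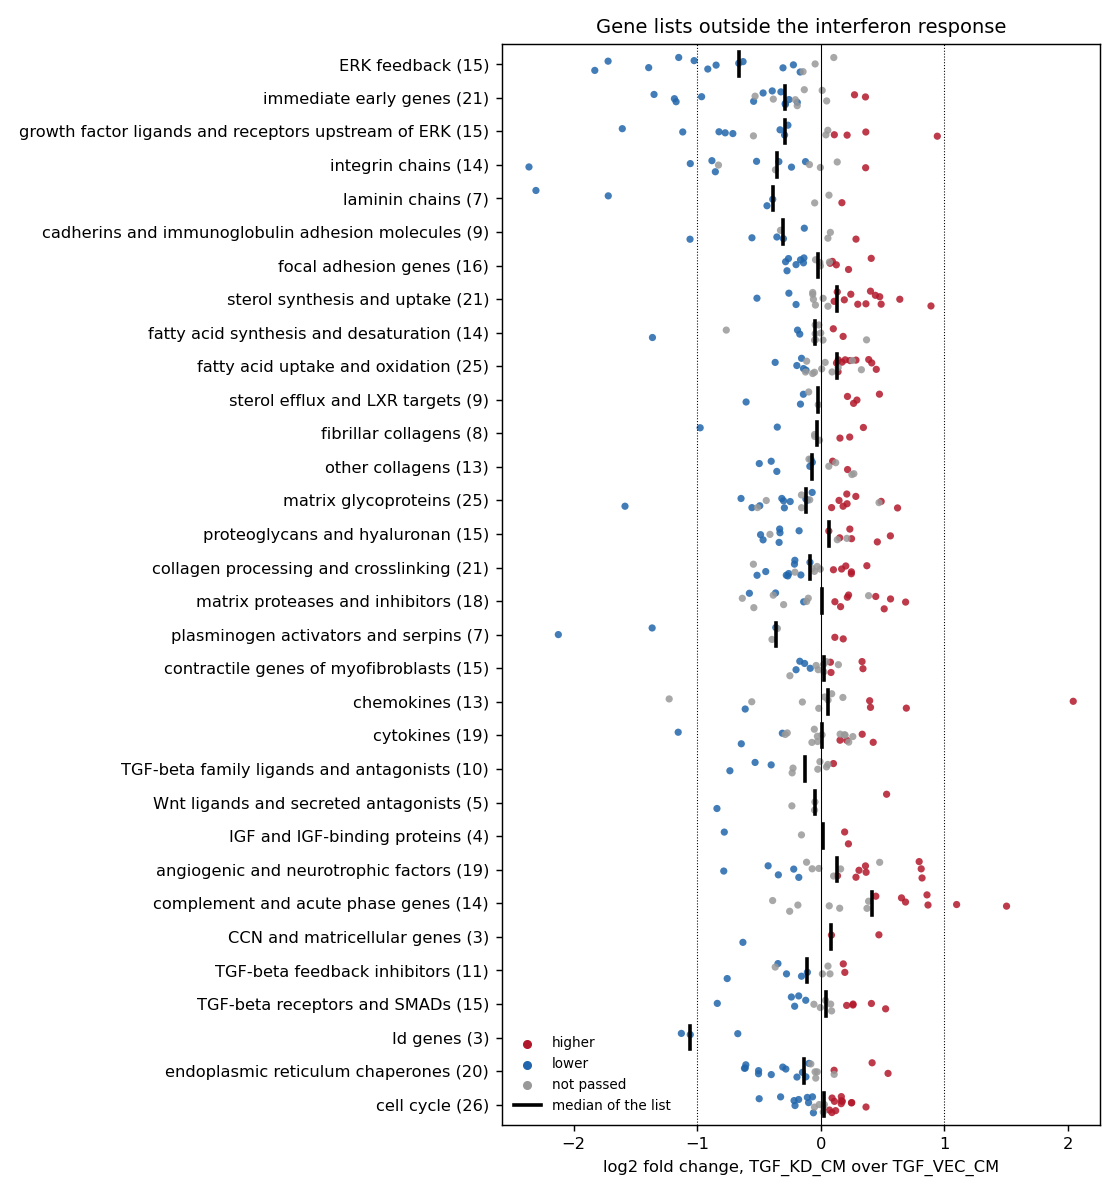
Log2 fold changes of TGF_KD_CM over TGF_VEC_CM (x axis) for the tested genes of the lists outside the interferon response (rows, number tested in brackets), coloured by call, with list medians as bars. The ERK feedback (median -0.66), integrin (-0.35) and laminin (-0.39) lists lie left of 0, and complement and acute phase genes (median 0.42) lie right.

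Lipid genes moved by less than 2-fold, apart from Acss2. Of 21 tested genes of sterol synthesis and uptake 12 rose and 3 fell, none by 2-fold, with a median of 0.13, beside 23.0% of all genes higher and 20.2% lower. Insig1, which holds SREBP factors in the endoplasmic reticulum and is itself a target of them, was at 12.2, 13.4 and 12.9 CPM in the TGF_VEC_CM libraries and 24.3, 22.6 and 24.6 CPM in the TGF_KD_CM libraries. The groups did not overlap, and Insig1 rose by 0.89 ± 0.06 SE with an edgeR adjusted p of 4.65e-19. The transcription factor Srebf2 rose by 0.48, and the enzymes Hmgcs1 and Fdps by 0.40 and 0.44. Squalene epoxidase (Sqle, -0.065) did not pass, and Dhcr7, which completes cholesterol, fell by 0.52. Of 14 tested genes of fatty acid synthesis and desaturation, 2 rose (14.3%), 3 fell (21.4%) and 9 did not pass, shares near or under those over all genes. Acss2, which makes acetyl-CoA from acetate, fell from 15.98 ± 0.6202 to 6.22 ± 0.213 CPM (-1.36 ± 0.10 SE), whereas Fasn, Scd1 and Srebf1 were at -0.015, 0.018 and -0.045 and did not pass.

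Genes of fatty acid uptake and oxidation rose in 10 of 25 tested cases (40%) and fell in 5 (20%), with a median of 0.13. Over all genes tested 23.0% were higher and 20.2% lower, so the share that fell was near the background. Pparg, the nuclear receptor named in the title of the series, was at 88.7, 93.8 and 91.2 CPM in the TGF_VEC_CM libraries and 102, 106 and 107 CPM in the TGF_KD_CM libraries, a difference of 0.20 ± 0.034 SE (edgeR adjusted p = 1.70e-06). The groups did not overlap. Of its known targets, Lpl (lipoprotein lipase) rose by 0.45 and Angptl4, an inhibitor of that lipase, by 0.28, while the fatty acid carrier Fabp4 fell by 0.37 and Cd36 was at 0.33 and did not pass. Acsl1, which activates fatty acids, rose by 0.39, Cpt1a, which admits them to mitochondria, by 0.17, and Ech1 by 0.41. Of 9 tested sterol efflux and LXR genes 4 rose (44.4%) and 3 fell (33.3%). Among them Nr1h3 (LXR alpha) rose by 0.47 and the cholesterol exporter Abca1 fell by 0.60. Adipocyte markers as a whole list are given above, and 1 of 8 tested rose and 1 fell (12.5% each), under the shares over all genes.

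Matrix genes moved both ways. Of 122 tested, 39 rose (32.0%) and 44 fell (36.1%), beside 23.0% and 20.2% of all genes, with 3 at least 2-fold lower, none at least 2-fold higher and a median of -0.069. Collagen I chains, the bulk of the fibrillar matrix, differed little: Col1a1 did not pass, at -0.01, and Col1a2 rose by 0.16 ± 0.02 SE from 4377 ± 47.1 to 4875 ± 109 CPM. Col3a1 and Col5a2 rose by 0.34 and 0.23, and Col27a1 fell by 0.98 from 3.705 to 1.88 CPM. Of 13 other collagens 6 fell and 2 rose; the basement membrane chain Col4a2 fell by 0.36, anchoring fibril Col7a1 by 0.50 and Col16a1 by 0.40. Of 25 glycoproteins 11 fell and 8 rose. The latent TGF-beta binding proteins Ltbp1, Ltbp2 and Ltbp3 fell by 0.56, 0.30 and 0.29, and Ltbp4 rose by 0.21. Fibronectin (Fn1) rose by 0.15 and Matn2 by 0.49; Vwa1, a basement membrane protein, fell by 1.58 and Tnxb by 0.65.

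Of 15 proteoglycan genes 6 rose and 6 fell. Versican (Vcan) rose from 151 ± 3.49 to 223 ± 3.603 CPM, and perlecan (Hspg2) and the hyaluronan receptor Cd44 fell by 0.34 and 0.33. Collagen processing genes fell in 9 of 21 cases (42.9%) and rose in 6 (28.6%). The crosslinking enzyme Loxl2 fell by 0.45 and the collagen chaperone Serpinh1 by 0.21. The procollagen enhancer Pcolce rose by 0.37 while its relative Pcolce2 fell by 0.52. Matrix proteases and inhibitors rose in 8 of 18 cases (44.4%) and fell in 3 (16.7%), the latter under the share over all genes. Mmp14 (a membrane collagenase) rose by 0.51, Timp2 by 0.45 and cathepsin K (Ctsk) by 0.56. Plat, the tissue plasminogen activator, was at 26.8, 27.6 and 27.7 CPM in the TGF_VEC_CM libraries and 5.21, 6.92 and 6.71 CPM in the TGF_KD_CM libraries. All TGF_KD_CM libraries were lower, and Plat fell by 2.12 ± 0.10 SE with an edgeR adjusted p of 8.52e-28. The urokinase receptor Plaur fell by 0.36, and Plau was at -0.35 and did not pass. Of 15 tested contractile genes 4 rose (26.7%) and 4 fell (26.7%), near the 23.0% and 20.2% over all genes. Those called ran from -0.20 for Actn1 to 0.34 for Cnn2, beside the lower sum of smooth muscle and pericyte markers given above.

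Of 87 tested genes of secreted signals 29 rose (33.3%) and 15 fell (17.2%), beside 23.0% and 20.2% of all genes, so the share lower was no larger than the background. Complement and acute phase genes rose in 7 of 14 cases and none fell, with a median of 0.42. C3, the central complement component, was at 28.01, 32.04 and 32.9 CPM in the TGF_VEC_CM libraries and 60.7, 67.2 and 71.4 CPM in the TGF_KD_CM libraries. The groups did not overlap, and C3 rose by 1.099 ± 0.092 SE. The ferroxidase ceruloplasmin (Cp) rose from 14.3 ± 1.598 to 40.6 ± 0.691 CPM (1.503 ± 0.073 SE), the classical pathway proteases C1ra and C1s1 by 0.86 and 0.69, and lipocalin 2 (Lcn2), which binds siderophores, by 0.87. The monocyte chemokines Ccl2 and Ccl7 rose by 0.40 and 0.40, and Ccl9 from 71.1 ± 2.72 to 115 ± 5.18 CPM; Cx3cl1 fell by 0.61, and Cxcl1 was at 0.059 and did not pass. Of 19 tested cytokines 4 rose (21.1%) and 3 fell (15.8%), near the shares over all genes. Among them Lif, a relative of IL6, fell from 28.6 ± 0.7199 to 18.3 ± 1.31 CPM and Csf1 (macrophage colony-stimulating factor) by 0.31, while Il6 (0.26) and Il11 (-0.27) did not pass.

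Of 19 tested angiogenic and neurotrophic factors 8 rose (42.1%) and 5 fell (26.3%), the latter near the share over all genes (23.0% higher and 20.2% lower). Angpt1, the ligand of the endothelial receptor TIE2, was at 39.4, 40.5 and 44.1 CPM in the TGF_VEC_CM libraries and 74.2, 72.8 and 71.00 CPM in the TGF_KD_CM libraries. Every TGF_KD_CM library was above every TGF_VEC_CM library, with a log2 difference of 0.81 ± 0.045 SE. Vegfd rose by 0.82 and Vegfa fell by 0.22. Igf1 fell from 20.8 ± 1.52 to 12.1 ± 1.81 CPM, and the binding proteins Igfbp4 and Igfbp6 rose by 0.22 and 0.19. Of 10 tested ligands and antagonists of the TGF-beta family 1 rose and 3 fell, beside 23.0% and 20.2% of all genes. The riser, Bmp1 (0.10), did not pass with another scaling, a stricter filter, DESeq2 or limma, or in 4 of the 6 leave-outs, and Grem1 (-0.40), among the 3 lower, did not pass in 3 leave-outs. Fstl3, a follistatin-like antagonist of activin, fell by 0.53 and Gdf15 by 0.74, and Tgfb1 and Tgfb3 were at -0.0066 and 0.057 and did not pass. Wnt10b rose by 0.53. Ccn1, a matricellular protein, fell by 0.63, Ccn5 rose by 0.47, and Ccn2, connective tissue growth factor, was too low to test at 0.0452 and 0.0541 CPM.

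TGF-beta receptors and inhibitors were compared because both groups received the ligand. Tgfbr1 rose from 27.6 ± 1.15 to 39.7 ± 1.58 CPM, Tgfbr2 by 0.26 and the co-receptor Tgfbr3 by 0.41. Of 11 feedback inhibitors 5 fell (45.5%) and 2 rose (18.2%), with a median of -0.11, beside 20.2% of all genes lower and 23.0% higher. All 3 tested Id genes, which encode inhibitors of helix-loop-helix factors and are known targets of BMP signalling, fell, 2 of them by at least 2-fold, with a median of -1.06. Id1 was at 78.2, 81.2 and 79.2 CPM in the TGF_VEC_CM libraries and 36.3, 42.8 and 35.7 CPM in the TGF_KD_CM libraries. The groups did not overlap, and Id1 fell by 1.06 ± 0.056 SE with an edgeR adjusted p of 1.26e-16. Id2 fell from 21.4 ± 1.26 to 9.795 ± 0.929 CPM and Id3 from 31.7 ± 1.38 to 19.9 ± 0.249 CPM. Among the SMADs, Smad3 fell by 0.21, Smad9 by 0.84, and Smad2 and Smad4 were at 0.088 and 0.08 and did not pass.

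**Figure D4:**
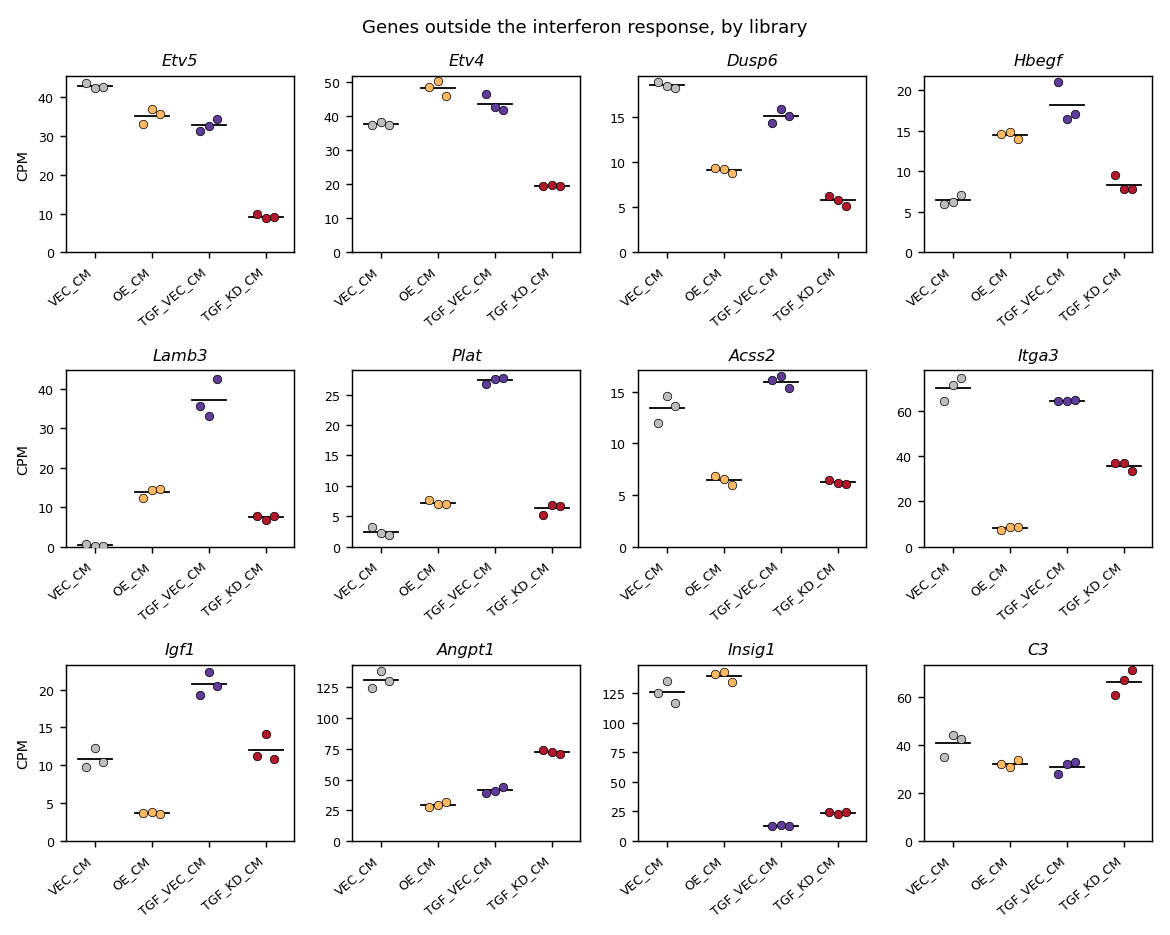
CPM on linear axes from 0 for 12 genes outside the interferon lists, in each library of the 4 groups, with group means as lines. The TGF_KD_CM points lie below the TGF_VEC_CM points for the first 9 genes (Etv5 to Igf1) and above them for Angpt1, Insig1 and C3.

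The effect of inhibition medium was then set beside the effect of overexpression medium, OE_CM against VEC_CM, which shares no library with it. That pair had no TGF-beta1, so the medium and the presence of TGF-beta1 cannot be told apart in the difference of the effects. Overexpression medium raised 4083 genes (28.4%) and lowered 3695 (25.7%), and the effects differed in 7553 genes (52.5%). Of the 179 interferon genes, 152 differed between the effects, 146 of them with the more positive effect for inhibition medium. Of the 140 interferon genes that rose with inhibition medium, 75 fell with overexpression medium, 18 rose and 47 did not pass. Stat2, at 36.6 CPM in VEC_CM and 28.5 CPM in OE_CM, fell by 0.36 there, a difference of effects of 1.996 ± 0.079 SE. Isg15 was at 1.36, 1.04 and 1.09 CPM in the VEC_CM libraries and 1.07, 0.209 and 0.219 CPM in the OE_CM libraries. The first OE_CM library lay within the range of the VEC_CM libraries and the other two were lower. Zbp1 rose with both media, by 2.86 with overexpression medium, and the effects differed by 1.61 ± 0.27 SE (edgeR adjusted p = 5.06e-04).

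On no interferon list, 1376 of the 2905 genes that fell with inhibition medium (47.4%) rose with overexpression medium, beside 28.4% of all tested genes, and 664 (22.9%) fell with both. Of the 3178 that rose, 1176 (37.0%) fell with overexpression medium and 783 (24.6%) rose with both. Across all 14221 genes the log2 differences of the comparisons had a Pearson r of -0.031, a description across genes, which are not independent replicates. Genes with opposite calls include Lamb3, at 0.373 CPM in VEC_CM and 13.8 CPM in OE_CM (5.19), Plat (1.54) and Fgf2 (1.68); the effects on Lamb3 differed by -7.497 ± 0.27 SE. Angpt1 and Lpl, which rose with inhibition medium, fell by 2.15 and 1.18 with overexpression medium. The ERK feedback genes did not follow one rule: Etv5, Dusp6 and Spry4 fell with both media, by 0.29, 1.02 and 0.95 with overexpression medium, and Etv4 and Dusp4 rose with it, by 0.36 and 1.100. Itga3 fell with both, from 70.1 to 8.34 CPM with overexpression medium.

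**Figure D5:**
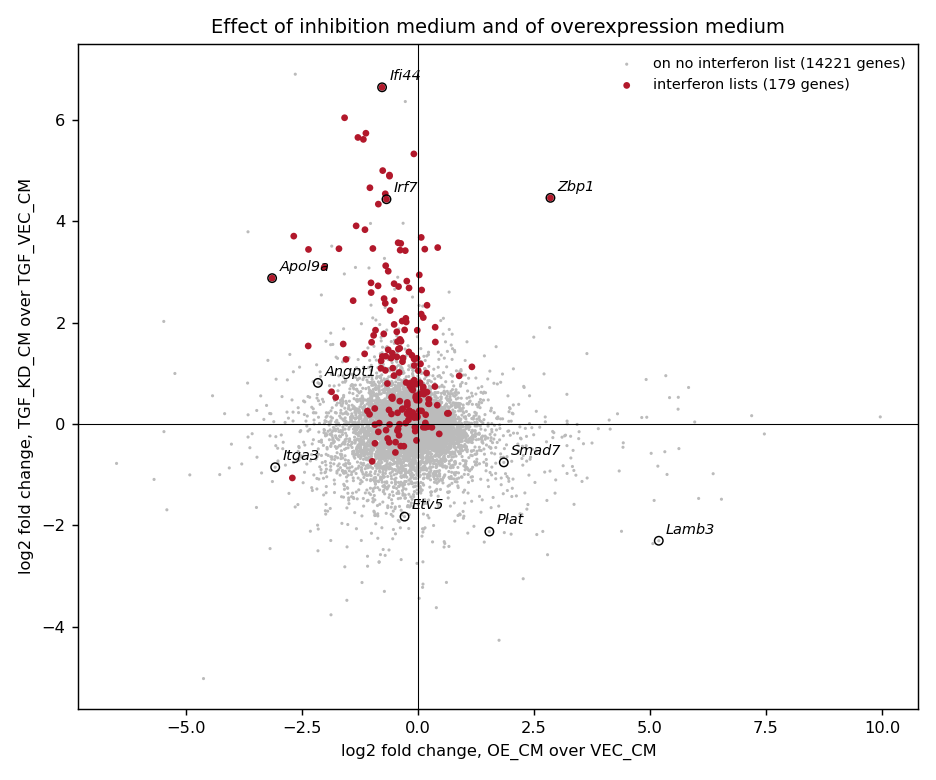
Log2 fold change of OE_CM over VEC_CM (x axis) against that of TGF_KD_CM over TGF_VEC_CM (y axis) for each tested gene, with the 179 interferon list genes in red and named genes circled. Most large rises on the y axis lie left of 0 on the x axis, with Zbp1 as an exception, and Lamb3, Plat and Smad7 lie at the lower right.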

How the data were processed

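Libraries were made with the SMARTER mRNA kit from 1.3 µg of total RNA, per the labels' protocols. The authors deposited whole-number counts per gene, not normalized, and FPKM for the same genes. Per the submitters' processing notes the genome build was mm10 (GRCm38); aligner, counter, annotation and strand setting: not given in the sources used here. Titles gave each library its group, because some treatment labels number the microRNA differently. Counts of all 12 libraries were fitted in R 4.3.3 with edgeR 4.0.16 (filterByExpr with a minimum count of 10, TMM, robust quasi-likelihood), with 1 term per group; the common biological coefficient of variation was 0.0341, and the tested genes held at least 99.9% of each library's counts. SE is the log2 difference divided by the square root of F. The fit was tested on simulated data. RefSeq gave symbols and promoters; 95.1% of the symbols matched. The deposited FPKM were used for alternatives with limma 3.58.1, and DESeq2 1.42.0 was an alternative for counts. The lists and the genes of interest were chosen with earlier results of these data known.

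Genes were named by rule: the 12 largest rises on the interferon lists at 5 CPM or more in TGF_KD_CM; on no interferon list, the 10 largest rises and 10 largest falls at 5 CPM or more in the higher group whose libraries did not overlap; in each of 57 lists, up to 4 members of lowest p in each direction; and members whose role defines a list. Some further list members were chosen after their values were seen. Some genes that the rule names are not reported here. The floor of 3 counts covers counting error alone. Alternatives were another normalization, filter or tool, FPKM with a pseudocount of 1 or 0.1, the 6 TGF-beta1 libraries alone, a replicate block, and each library left out.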

Additional observations from a re-analysis of the deposited data

How the results depend on the processing

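The counts of genes higher and lower, at least 2-fold higher and lower, interferon genes higher and genes whose effects differed stayed within 1.5 times of the values given under each alternative run, apart from 4 cases. Genes at least 2-fold lower numbered 167 with a filter of 1 CPM in 3 libraries, which tests fewer genes, 20 with limma on log2(FPKM + 1) and 223 with limma on log2(FPKM + 0.1), and genes at least 2-fold higher numbered 93 with limma on log2(FPKM + 1); a pseudocount shrinks the differences of low genes. Leaving out each library of the 2 groups in turn gave 2776 to 2910 genes higher, 2773 to 2910 lower, 206 to 220 and 334 to 390 past 2-fold, and 138 to 140 interferon genes higher. No named gene that was called changed direction in the alternatives that tested it. Genes that did not pass were not checked for direction. Replicate numbers did not pair the libraries: deviations of same-numbered libraries correlated at 0.0003, 0.030 and 0.015, and the first library of each group did not correlate best with its own number. With the replicate number as a block, 3403 genes were higher, 2978 lower, 216 and 362 past 2-fold, 7678 differed between effects and 140 interferon genes were higher. Other scaling factors in edgeR moved the median over all genes by -0.0103 (DESeq2 size factors) and -0.0236 (upper quartile) on the log2 scale, and limma on log2(FPKM + 0.1), which changes tool, scale and pseudocount together, by -0.0324. Of the genes called, 53.3% were higher, against 46.5% with upper-quartile factors and 43.7% with limma on log2(FPKM + 1). Of 438 genes called on the lists outside the markers, 50 lost their call in at least 1 of the 6 leave-outs, with a median absolute difference of 0.16; 3 of the 50 were 2-fold differences, Cxcl9, Lamc3 and Il33. With 1 library left out, focal adhesion genes higher numbered 3 to 4, contractile genes higher 2 to 4, and fatty acid synthesis genes and other collagens higher 1 to 2 each. Cell cycle genes higher numbered 9 to 12, sterol synthesis genes higher 10 to 12, and matrix glycoproteins and matrix proteases higher 6 to 8 each. Proteoglycan genes higher numbered 4 to 5, against 6 with all libraries. The counts of further lists also moved. Genes removed by the filter, with the interferon ligands among them, are limited by depth.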

Other observations

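Chaperones of the endoplasmic reticulum and cell cycle genes, which were not described above, also differed between TGF_KD_CM and TGF_VEC_CM. Of 20 tested chaperone and unfolded protein response genes 12 fell and 3 rose, with a median of -0.13, beside 20.2% of all genes lower and 23.0% higher. The co-chaperone Sdf2l1 was at 96.4, 94.4 and 98.8 CPM in the TGF_VEC_CM libraries and 59.04, 61.1 and 68.6 CPM in the TGF_KD_CM libraries, groups that did not overlap, and fell by 0.62 ± 0.049 SE. Manf, a secreted protein of the same response, fell by 0.50, and Pdia4, a disulfide isomerase, by 0.40, while Ddit3 (CHOP), a transcription factor of prolonged stress, rose from 26.3 ± 1.85 to 38.4 ± 1.55 CPM. Of 26 tested cell cycle genes 12 rose and 9 fell, with a median of 0.026. Ccnd1, the cyclin that growth factors induce in G1, was at 612, 592 and 584 CPM in the TGF_VEC_CM libraries and 416, 434 and 416 CPM in the TGF_KD_CM libraries. All TGF_KD_CM libraries were lower, and Ccnd1 fell by 0.50 ± 0.025 SE, with Ccne1 at -0.32. The mitotic genes Cdc20 and Ccnb2 rose by 0.37 and 0.25, and the replication helicase subunit Mcm5 by 0.25.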
